A study of Mus musculus with 30 samples.

Results

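In mouse embryonic stem cells, 583 of 5720 EPOP regions (10.2%) lay outside the regions where Suz12 was found in both of its ChIP experiments without knock-down. An EPOP region was a merged interval that held an EPOP peak of both EPOP lists without knock-down, and a Suz12 region was built likewise from both Suz12 lists. The 583 regions overlapped no Suz12 region and no Jarid2 peak by at least 1 bp. Of the other EPOP regions, 5135 overlapped a Suz12 region, 2322 of them with and 2813 of them without a Jarid2 peak. The last 2 lay outside Suz12 regions and held a Jarid2 peak. With all peaks of 1 EPOP list taken in place of regions of both, the count was 5061 without EPOP replicate 2 and 928 without replicate 1, and with all peaks of 1 Suz12 list it was 370 without Suz12 replicate 2 and 453 without replicate 1. The members and the lists they were compared in were chosen with earlier results of these data known.

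The name of the group holds only for Suz12 regions of both lists. Of the 583 regions, 360 (61.7%) held a Suz12 peak of 1 list only, 211 of them in replicate 1 and 149 in replicate 2. A further 2 regions held a peak of each list at different places, and 221 (37.9%) held none in either list. When both knock-down lists of Suz12 were counted as well, 454 regions (77.9%) held a Suz12 peak in at least 1 of the 4 lists and 129 (22.1%) in none.

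EPOP, also called C17orf96, is a protein that binds Polycomb repressive complex 2 (PRC2) and the Elongin BC complex. PRC2 places trimethyl marks on lysine 27 of histone H3 (H3K27me3), a mark of repressed developmental genes, and Suz12 is one of its core subunits. Jarid2 is an accessory subunit of a form of PRC2 that lacks EPOP, and Elongin B (EloB) is a small adaptor first found in a complex that aids transcription elongation. H3K4me3 marks the start sites of active and poised genes, and promoters that carry it together with H3K27me3 are called bivalent.

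The study measured these proteins and marks by chromatin immunoprecipitation and sequencing in E14Tg2A cells, a mouse embryonic stem cell line, grown without feeder cells in serum with leukemia inhibitory factor. The tested cells carried a lentiviral short hairpin against EPOP, or received small interfering RNA against EloB, and the cells set against them had no knock-down of either protein. They were not all untreated. By name, EPOP replicate 2, Suz12 replicate 2 and Jarid2 without knock-down came from a control hairpin, and Suz12 replicate 1 from a control small interfering RNA. Upon EPOP knock-down there were 2 lists for EPOP and for EloB and 1 each for Suz12, Jarid2, H3K27me3 and H3K4me3, and upon EloB knock-down 1 list each for Suz12 and H3K4me3. Without knock-down there were 2 lists each for EPOP, EloB, Suz12 and H3K4me3 and 1 each for Jarid2 and H3K27me3. Cells with the hairpin were kept by drug selection, and the H3K27me3 knock-down list carries another hairpin name in its header than the Suz12, H3K4me3, Jarid2 and second EPOP knock-down lists. EPOP replicates 1 and 2 used 2 lots of a home-made antibody, EloB replicates 1 and 2 used antibodies of 2 makers, and proteins were crosslinked to each other before the EloB ChIPs. The labels of EPOP knock-down replicate 1 conflict (IgG in the description, EPOP in the title and antibody), so the counts of the 2 EPOP knock-down lists are given separately. Whether replicates came from separate cultures is not stated, and the spread between lists may be technical.

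Lists held between 108 peaks (EPOP upon EPOP knock-down, replicate 1) and 47296 peaks (H3K4me3 upon EloB knock-down), each with a score of 50 or more that is the authors' own value per peak. The depth behind each list is unknown. Intervals of shares are Wilson 95% intervals and those of differences Newcombe 95% intervals. They cover the counting of regions only and say nothing of the spread between cultures, and most knock-down conditions had 1 list. Regions are given by position and not by gene, since gene models of the mm9 build were not used.

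The EPOP peaks themselves were low and narrow, which is a description and not a test, since the regions were chosen by peaks of these 2 EPOP lists and of the Suz12 and Jarid2 lists without knock-down. In replicate 1 the EPOP score of the 583 regions ranged between 50.07 and 433.08 with a median of 105.8, against a median of 356.06 at EPOP regions on Suz12. In replicate 2 it ranged between 50.11 and 317.11 with a median of 73.25, against 300.81 on Suz12. Width had a median of 1545 bp (567 to 4869 bp), against 2299 bp on Suz12. The lower of the 2 scores was below 60 in 189 of the 583 regions (32.4%) and in 201 of the 5135 on Suz12 (3.91%). When all EPOP regions were cut by that lower score into 4 classes of equal size, 489 of the 583 (83.9%) fell in the lowest class, 94 in the second and 0 in the upper 2. The EPOP regions on Suz12 numbered 939, 1336, 1430 and 1430 in the same classes. For this reason the main shares are also given within the lowest class, where the median lower score was 64.36 at the 489 regions and 73.33 at the 939 on Suz12.

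**Figure D1:**
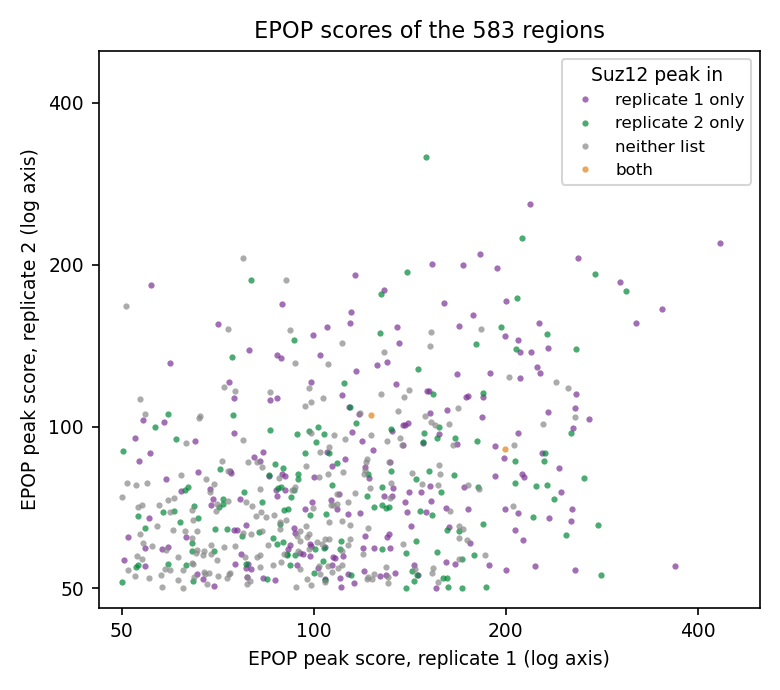
EPOP peak score of the 583 EPOP regions outside Suz12 regions in replicate 1 (x) and replicate 2 (y), both on log axes in the authors' score units, 1 point per region, coloured by which Suz12 list without knock-down held a peak. Medians were 105.8 in replicate 1 and 73.25 in replicate 2. The classes overlapped, but regions with a Suz12 peak in neither list reached only 256.3 in replicate 1 and 205.48 in replicate 2. The highest values were 433.08 and 259.21 with a Suz12 peak in replicate 1 only, and 309.08 and 317.11 with one in replicate 2 only.

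The strongest of these regions by the lower score was chr1:75259373-75261818, 94152 bp away from the nearest Suz12 region. It scored 433.08 and 219.91 for EPOP in replicates 1 and 2. It held a Suz12 peak upon EloB knock-down (score 86.36) and in replicate 1 without knock-down (125.78), but none upon EPOP knock-down or in replicate 2. Its H3K27me3 score was 343.29 upon EPOP knock-down and 91.46 without knock-down, and it had an H3K4me3 peak in all 4 lists. Regions on a Suz12 region of both lists were left out by the choice. Of the 10 strongest regions, each held a Suz12 peak in exactly 1 of the 2 lists without knock-down. Examples are chr2:92210085-92212972 (EPOP scores 212.03 and 223.97; Suz12 score 132.02 in replicate 2) and chr7:50744188-50746021 (EPOP 259.26 and 206.07; Suz12 192.52 in replicate 1). In the second example the H3K27me3 score was 50.77 upon EPOP knock-down and 132.14 without knock-down.

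The choice had a sharp edge in space. The 5 members nearest to a Suz12 region lay 53, 148, 232, 360 and 379 bp from one, and the 5 EPOP regions with the smallest overlap shared 85, 404, 419, 433 and 476 bp with one. The nearest member was chr17:27085124-27086950, with EPOP scores of 199.66 and 70.34. Few members were flanks of Suz12 regions in this sense, since 12 lay within 1000 bp, 59 within 5000 bp and 102 within 10000 bp of one. The median gap was 67110 bp.

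Nearly all of the regions carried H3K4me3. An H3K4me3 region of both lists without knock-down overlapped 526 of 583 (90.2%, interval 87.5 to 92.4), against 4961 of 5135 EPOP regions on Suz12 (96.6%), and the background over all EPOP regions was 96%. The share outside minus that on Suz12 was −6.39 points (interval −9.11 to −4.17). The difference was −20.4 points without EPOP replicate 1, −14.1 without EPOP replicate 2, −10.2 without Suz12 replicate 1 and −3.48 without H3K4me3 replicate 1. In the single lists the share was 94.7% upon EPOP knock-down, 96.7% upon EloB knock-down, 90.4% in replicate 1 and 95.2% in replicate 2 at the 583 regions, against 97.7%, 98.9%, 96.5% and 98.7% on Suz12 in the same order. Within the lowest EPOP score class it was 89.8% against 92.8%, a difference of −2.98 points with an interval of −6.34 to 0.026 that includes 0. H3K4me3 peaks covered a median of 96.6% of each region, against 88.3% on Suz12. The EPOP and H3K4me3 regions were centred 125.5 bp apart in the median, and 133.5 bp apart on Suz12.

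H3K27me3 was found at fewer of them. Without knock-down, 256 of 583 held an H3K27me3 peak (43.9%, interval 39.9 to 48.0), against 4569 of 5135 on Suz12 (89.0%), with a background of 84.4% over all EPOP regions. The difference was −45.1 points (interval −49.1 to −40.9), and −70.1 points without EPOP replicate 2. In the lowest EPOP score class the share was 38.9% outside Suz12 regions and 66.2% on Suz12 (difference −27.4 points, interval −32.5 to −22.0), and in the second class 70.2% and 85.4% (difference −15.2, interval −25.2 to −6.65). Where a peak was present its score had a median of 90.8, against 233.39 on Suz12. H3K27me3 peaks covered a median of 0% of the 583 regions and of 85.2% of those on Suz12.

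By both marks, 229 of the 583 regions (39.3%) held H3K4me3 and H3K27me3, the bivalent pair, against 86.0% on Suz12. Another 297 (50.9%) held H3K4me3 alone, against 10.6% on Suz12. H3K27me3 alone was found at 27 (4.63%, against 2.96%) and neither mark at 30 (5.15%, against 0.428%). Both marks were at 34.8% of the 489 regions in the lowest EPOP score class, and at 60.7% of the 939 on Suz12. Without knock-down the presence of H3K27me3 did not differ detectably with that of H3K4me3 among the 583: 43.5% of the 526 regions with H3K4me3 and 47.4% of the 57 without it held H3K27me3 (difference −3.83 points, interval −17.2 to 9.26). Upon EPOP knock-down 26.6% of those with H3K4me3 and 42.1% of those without it held H3K27me3 (difference −15.5 points, interval −28.9 to −2.94).

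**Figure D2:**
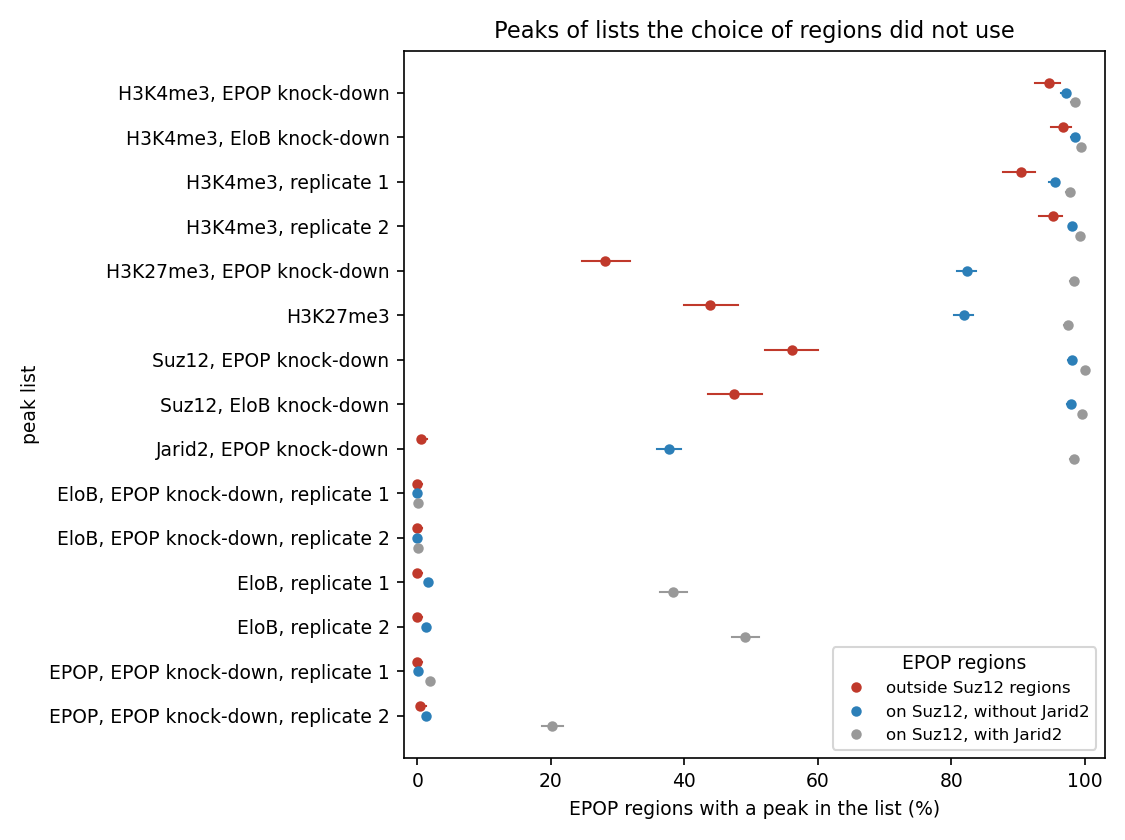
Share of EPOP regions with a peak (x, percent) in each list that did not enter the choice of regions (y). The EPOP, Suz12 and Jarid2 lists without knock-down did enter it. Red points are the 583 regions outside Suz12 regions, blue those on Suz12 without a Jarid2 peak (2813) and grey those on Suz12 with one (2322), with Wilson 95% intervals as lines. The red points lie near the others for H3K4me3, below them for H3K27me3 and Suz12, and at 0 for all 4 EloB lists. For EloB the blue points lie close to them, at 0% upon EPOP knock-down and at 1.56% and 1.35% without.

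Suz12 peaks were found at many of the regions in the knock-down lists, which the choice did not use. The choice did use Suz12 without knock-down, so shares below those on Suz12 are not independent of it. Upon EPOP knock-down 327 held a Suz12 peak (56.1%, interval 52.0 to 60.1), against 98.9% of EPOP regions on Suz12 and a background of 94.6%. Upon EloB knock-down 277 did (47.5%, interval 43.5 to 51.6), against 98.7% and a background of 93.5%. At least 1 of the 2 lists had a peak at 410 regions (70.3%), against 99.9% on Suz12 and a background of 96.9%, a difference of −29.6 points that was −66.3 without EPOP replicate 2. That share was 67.5% in the lowest EPOP score class, against 99.6% on Suz12. In the lowest EPOP score class the shares were 53.8% and 95.4% in the EPOP and 44.4% and 95.5% in the EloB knock-down list, with differences of −41.6 points (interval −46.2 to −37.0) and −51.2 points (interval −55.6 to −46.5). These peaks were weak. Their median score was 91.8 after EPOP depletion and 132.9 after EloB depletion at the 583 regions, against 862.84 and 2473.88 on Suz12. The counts in the knock-down lists cannot be set against the 213 and 151 regions with a peak in replicates 1 and 2 without knock-down, because regions with a peak of both were left out by the choice.

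A few members had strong Suz12 peaks. The strongest was chr12:34647119-34648979, 1392 bp from a Suz12 region, where the Suz12 score was 3100 upon EloB knock-down, 102.02 upon EPOP knock-down and 982.54 in replicate 1 without knock-down, with no peak in replicate 2. It had no H3K4me3 peak in any of the 4 lists, and its H3K27me3 score was 854.33 upon EPOP knock-down and 249.32 without. At chr13:55588126-55590233 the Suz12 score was 114.84 upon EPOP knock-down, 1425.5 upon EloB knock-down and 735.61 in replicate 1. At chr4:88949016-88950204 it was 314.87, 1423.31 and 757.94 in the same order. The 5 regions with the highest Suz12 score all lacked a peak in replicate 2 without knock-down. This follows largely from the choice, since all 5 held a peak in replicate 1 and Suz12 regions of both lists were left out.

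The regions with a Suz12 peak of 1 list differed from each other by which list it was. Upon EloB knock-down, 85.8% of the 211 regions with a peak in replicate 1 only had a Suz12 peak, against 35.6% of the 149 with a peak in replicate 2 only (difference 50.2 points, interval 40.6 to 58.5). Upon EPOP knock-down the shares were 65.9% and 73.8% (difference −7.95 points, interval −17.2 to 1.77, which includes 0). Regions with a peak in neither list had 18.6% in the EloB and 34.4% in the EPOP knock-down list. Per the file headers, replicate 1 and the EloB knock-down list are named as siRNA experiments and replicate 2 and the EPOP knock-down list as shRNA experiments, and with 1 list of each kind the replicate and the method cannot be told apart.

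The marks at these regions differed as well. H3K27me3 without knock-down was found at 61.1% of the regions with a Suz12 peak in replicate 1 only and at 36.9% of those with one in replicate 2 only (difference 24.2 points, interval 13.8 to 33.9), and at 32.1% of those with neither. Upon EPOP knock-down the shares were 49.8%, 13.4% and 17.6%. For H3K4me3 the shares were 88.2%, 95.97% and 88.2% (replicate 1 only minus replicate 2 only, −7.82 points). The H3K4me3 score in replicate 1 had a median of 560.57 at regions with a Suz12 peak in replicate 1 only, 2261.06 at those with one in replicate 2 only and 672.1 at those with neither. EPOP score differed little between the first 2 classes, with median lower scores of 74.19 and 70.97, and was 63.89 in the third. By the number of Suz12 lists with a peak, H3K27me3 was found at 27.9% of the 129 regions with none of 4, 45.0% of the 111 with 1, 44.8% of the 174 with 2 and 54.5% of the 167 with 3.

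**Figure D3:**
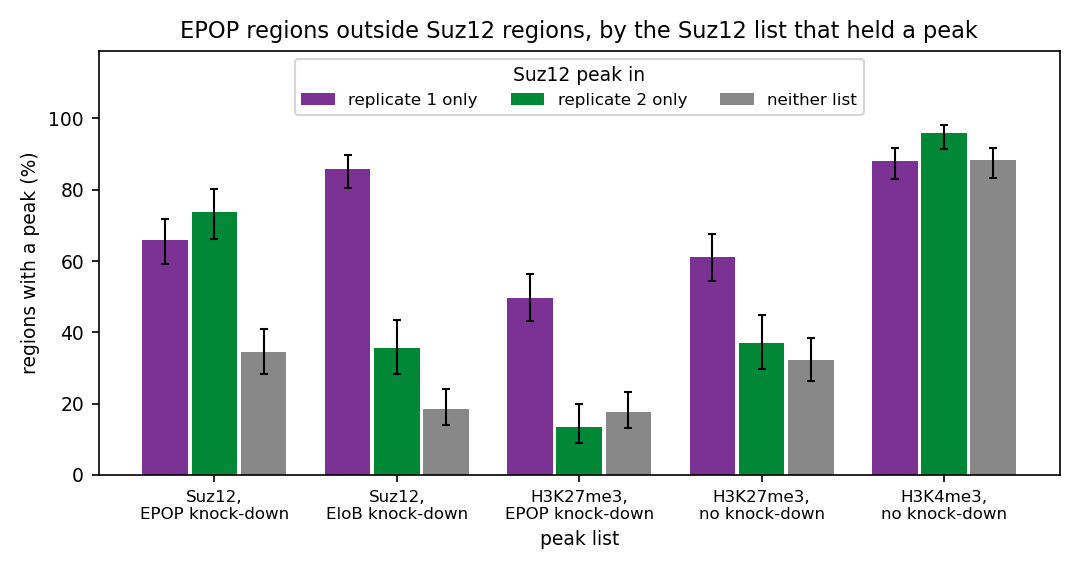
Share of EPOP regions outside Suz12 regions with a peak (y, percent) in 5 lists (x), by whether a Suz12 peak was in replicate 1 only (purple, 211 regions), replicate 2 only (green, 149) or neither list (grey, 221). Bars start at 0 and whiskers are Wilson 95% intervals; for H3K4me3 a region of both lists was counted. Purple stands above green for Suz12 upon EloB knock-down (85.8% and 35.6%) and for H3K27me3.

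The 129 regions without a Suz12 peak in any list held H3K4me3 at 110 (85.3%) and H3K27me3 at 36 (27.9%, interval 20.9 to 36.2). Their median lower EPOP score was 61.94 and their median width 1313 bp. The strongest, chosen after the values were seen, was chr7:20437083-20438177, 326349 bp from a Suz12 region, with EPOP scores of 152.28 and 141 and H3K4me3 scores of 779.06 upon EPOP knock-down, 780.27 upon EloB knock-down, 475.4 in replicate 1 and 640.89 in replicate 2. It had no H3K27me3 peak. The second, chr19:5923814-5925717, had EPOP scores of 202.43 and 123.61 and an H3K27me3 peak without knock-down (score 120.1) that was not found upon knock-down.

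Set among other H3K4me3 regions outside Suz12 regions and Jarid2 peaks, those with an EPOP region stood apart. Of the 527 such H3K4me3 regions that overlapped one of the 583 regions, 43.5% held an H3K27me3 peak without knock-down, against 11.1% of 3626 with an EPOP peak of 1 list only and 1.51% of 21975 with no EPOP peak. The difference from regions without EPOP was 41.9 points (interval 37.8 to 46.2). Upon EPOP knock-down the H3K27me3 shares were 26.4%, 6.73% and 1.00%. Suz12 peaks upon EPOP knock-down were at 58.1%, 27.7% and 2.92% of them, and upon EloB knock-down at 46.3%, 14.3% and 1.60%. The groups also differed in Suz12 peaks without knock-down, though none held a Suz12 region of both lists. Replicate 1 had such a peak at 35.7%, 9.02% and 0.714%, and replicate 2 at 27.7%, 14.9% and 1.60%. The H3K27me3 differences thus go with Suz12 peaks as well as with EPOP, and the part of each was not tested.

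The 3 groups of H3K4me3 regions also differed in form. Median widths were 1788, 2309 and 1634 bp, and median H3K4me3 scores in replicate 1 were 817.67, 2016.08 and 253.59, in the same order. The group with an EPOP peak of 1 list was thus the widest and highest for H3K4me3 and stood between the others for H3K27me3. Within 4 classes of H3K4me3 width, narrow to wide, H3K27me3 was at 43.9%, 52.7%, 42.4% and 34.8% of the regions with an EPOP region, against 2.01%, 2.44%, 1.07% and 0.586% of those without EPOP. The part of H3K4me3 score in this difference was not tested.

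**Figure D4:**
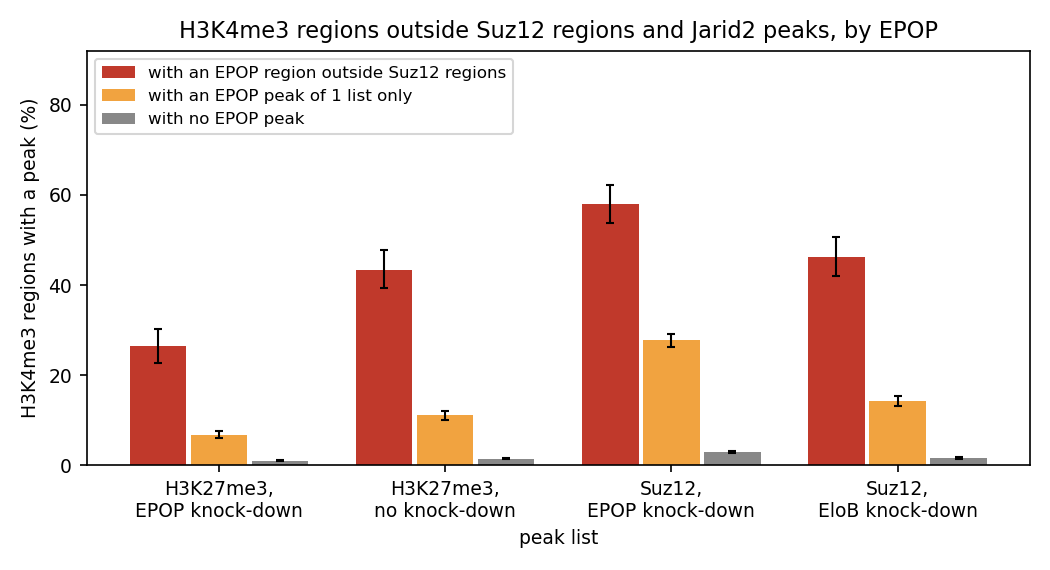
Share of H3K4me3 regions outside Suz12 regions and Jarid2 peaks that held an H3K27me3 or Suz12 peak (y, percent) in 4 lists (x). Red bars are H3K4me3 regions with one of the EPOP regions outside Suz12 regions (527), orange those with an EPOP peak of 1 list only (3626) and grey those with no EPOP peak (21975), with Wilson 95% intervals. Red is highest and grey lowest in each list, for example 43.5%, 11.1% and 1.51% for H3K27me3 without knock-down. Suz12 peaks without knock-down, not drawn, were at 35.7%, 9.02% and 0.714% in replicate 1.

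No Elongin B peak was called at the regions in any list. None of the 583 held an EloB peak in replicates 1 or 2 upon EPOP knock-down or in replicates 1 or 2 without knock-down, and a count of 0 (taken as 3 of 583) allows a share of up to 0.515%. On Suz12, 18.2% and 22.9% of EPOP regions held one in replicates 1 and 2 without knock-down, and the background over all EPOP regions was 16.3% and 20.6%, or 13.3% for EloB regions of both replicates. Of the 2322 on Suz12 with a Jarid2 peak 38.3% and 49.1% held one, but of the 2813 without Jarid2 only 1.56% and 1.35%. An EloB region of both replicates was at 0.355% of these 2813. The share at the 583 regions minus that one was −0.355 points (interval −0.653 to 0.319, which includes 0). The contrast with all EPOP regions on Suz12 lay in the strong regions. In the lowest EPOP score class 0 of 489 regions and 3 of 939 on Suz12 had an EloB peak in replicate 1, and 0 and 0 in replicate 2, so that a difference between regions of like EPOP score was not detectable. The nearest EloB peak was 2281 bp away, at chr11:4960921-4963088, and the median gap was 252465 bp. With 0 regions in each of the 4 lists, the two-sided exact permutation test over lists could give only p = 1. It therefore cannot decide whether EloB at these regions changed upon EPOP knock-down.

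Upon EPOP knock-down few EPOP peaks were called, at these regions as on Suz12. Replicate 1 had a peak at 0 of 583 and replicate 2 at 2 (0.343%), against 48 (0.935%) and 506 (9.85%) of 5135 on Suz12, with a background of 0.839% and 8.88%. In the lowest EPOP score class the counts were 0 and 2 of 489, against 1 and 1 of 939. Both remaining peaks rest on replicate 2, whose labels do not conflict. They were at chr1:194860764-194862040, with a score of 135.06 upon knock-down and 78.5 and 50.87 without, and at chr13:45096106-45098409, with 74.51 upon knock-down and 120.98 and 74.18 without. The knock-down peaks were 687 and 723 bp wide, and their log2 width ratios to the mean of both lists without knock-down were −0.56 and −1.17, with a median of −0.86. Against replicate 2 alone they were −0.11 and −0.38, with a median of −0.25. Both sites had H3K4me3 scores of at least 2882.71 in every list, and no H3K27me3 peak.

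Jarid2, absent by choice without knock-down, was found upon EPOP knock-down at 3 of 583 regions (0.515%, interval 0.175 to 1.50). Among EPOP regions on Suz12 that likewise lacked a Jarid2 peak without knock-down, 1059 of 2813 (37.6%) held one, a difference of −37.1 points (interval −39.0 to −35.1). Among all EPOP regions on Suz12 it was 3345 of 5135 (65.1%), a difference of −64.6 points (interval −66.0 to −63.0), and the background over all EPOP regions was 58.5%. In the lowest EPOP score class, Jarid2-bearing regions included, it was 0.204% of the 489 and 15.3% of the 939 on Suz12. The 3 regions, named after their values were seen, were chr2:180375506-180377446 (Jarid2 score 66.48), chr2:30542201-30543477 (57.2) and chr11:70164496-70166595 (53.48). All 3 held Suz12 peaks in both knock-down lists and in replicate 1 without knock-down.

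The H3K27me3 peaks of these regions were found again upon EPOP knock-down less often than those on Suz12. Upon knock-down 164 of 583 (28.1%) held an H3K27me3 peak, against 256 (43.9%) without knock-down, a change of −15.8 points. The share upon knock-down in the lowest EPOP score class was 25.2%, against 67.2% on Suz12. Over all EPOP regions on Suz12 the shares were 89.6% upon knock-down and 89.0% without, a change of 0.604 points, and the background upon knock-down was 83.3%. Of the 256 regions with a peak without knock-down, 122 held one upon knock-down (47.7%, interval 41.6 to 53.8), and 42 others had one upon knock-down only. On Suz12 94.1% were found again, with a background of 91.6% over all EPOP regions, so that the difference was −46.4 points (interval −52.5 to −40.3). Over all 8811 H3K27me3 peaks without knock-down, with EPOP or not, 6783 (77.0%) were found again. Those of the 8811 that were not found again had a median score of 66.65.

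The peaks not found again had lower scores. Their H3K27me3 score without knock-down had a median of 79.1, against 114.84 for those found again. Within the lowest class of H3K27me3 score, 38.0% of 184 peaks at the 583 regions and 80.3% of 1021 on Suz12 were found again (difference −42.3 points, interval −49.4 to −34.6), and in the second class 67.3% of 55 and 96.3% of 1151. Within the lowest EPOP score class the shares were 44.2% and 79.1% (difference −34.9 points, interval −42.4 to −27.0). H3K27me3 peaks that overlapped neither an EPOP nor a Suz12 peak were found again in 35.4% of 1511, which was 12.2 points below the 583 regions (interval 5.73 to 18.8 for the 583 regions minus these). These peaks had lower scores and were narrower, with a median score of 64.93 against 90.8 and a median width of 775 bp against 1325.5 bp. Within the lowest class of H3K27me3 score, in a comparison added after seeing the data, the share was 38.0% at the 583 regions and 32.4% of 1402 of these peaks, a difference of 5.66 points with an interval of −1.49 to 13.2 that includes 0. In the second class the shares were 67.3% of 55 and 71.4% of 98 (difference −4.16 points, interval −19.6 to 10.4). In the third they were 91.7% of 12 and 100% of 11 (difference −8.33 points, interval −35.4 to 18.4). The sign thus turned with the score class, and each interval includes 0. By Suz12 list, 62.8% were found again with a peak in replicate 1 only, 23.6% with one in replicate 2 only (difference 39.2 points, interval 23.8 to 51.3) and 39.4% with neither. Each condition had 1 H3K27me3 list, of 7956 peaks upon knock-down and 8811 without, so the spread between cultures is not known, and a peak under the authors' score of 50 counts as not found.

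**Figure D5:**
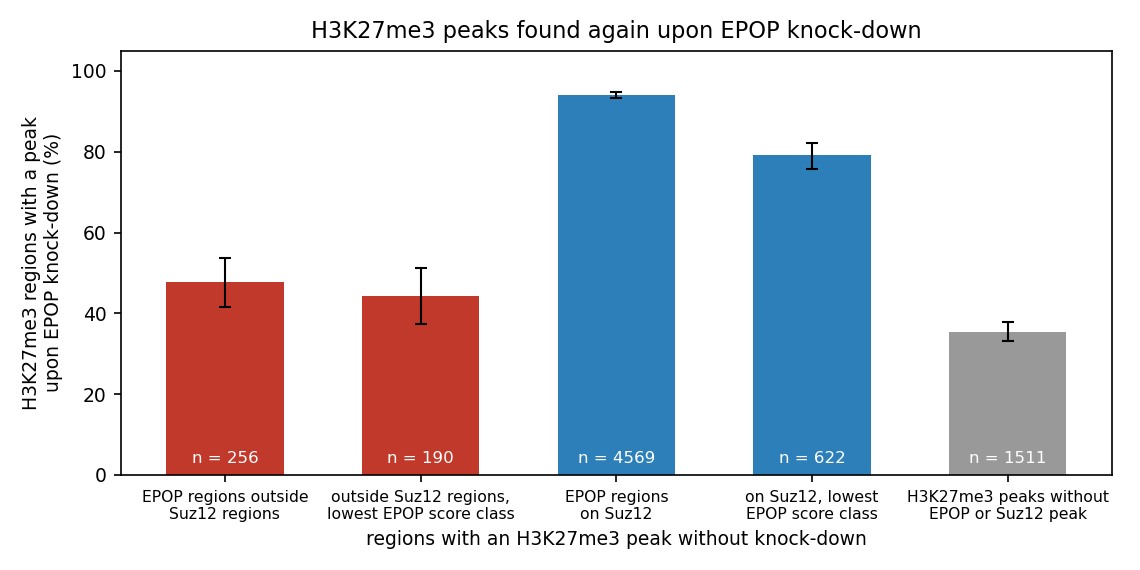
Share of regions with an H3K27me3 peak without knock-down that held one upon EPOP knock-down (y, percent), with Wilson 95% intervals and the number of regions in each bar. Red bars are EPOP regions outside Suz12 regions, all and in the lowest EPOP score class, blue bars those on Suz12, and the grey bar H3K27me3 peaks on no EPOP or Suz12 peak of either list. The red bars (47.7% and 44.2%) stand below both blue bars (94.1% and 79.1%) and above the grey one (35.4%). The bars are not matched for H3K27me3 score, whose median was 64.93 at the grey peaks and 90.8 at the 583 regions.

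H3K4me3 peak width at the regions moved upon knock-down in shares close to those of all H3K4me3 regions. At 524 regions with peaks in all 3 lists the median width was 1741.5 bp upon EPOP knock-down and 1576.5 and 1797 bp in replicates 1 and 2 without it. The median log2 ratio to the mean of both was 0.031, less than the 0.15 between the 2 replicates. The peak was wider than in both at 178 regions (34.0%, background 33.1%) and narrower at 95 (18.1%, background 20.9%). Upon EloB knock-down the median width at 525 regions was 1886 bp, against 1575 and 1795 bp. The median log2 ratio was 0.14 to the mean of both, and 0.22 and 0.048 to replicates 1 and 2 alone. The 2 replicates differed by 0.15 from each other, and both had narrower peaks in the median than the knock-down list. With 1 knock-down list the ratio was not tested. There the peak was wider than in both replicates at 333 regions (63.4%, background 62.2%) and narrower at 29 (5.52%, background 7.96%). On Suz12 the median log2 ratio was −0.0051 for the EPOP and 0.12 for the EloB knock-down. Per the file headers replicate 1 of H3K4me3 is named as an shRNA and replicate 2 as an siRNA experiment, and against the replicate of its own method the median log2 ratio at the 583 regions was 0.11 for the EPOP and 0.048 for the EloB knock-down.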

How the data were processed

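ChIP-seq peak lists of 20 samples of 6 targets were used, each made from 1 sample. RNA samples (9) and 1 IgG sample were not analysed here. Each deposited list gives a chromosome, start, end and score per peak; the score is the authors' own value, of at least 50 in each list and often 3100 at the top, and no source used here says how it was computed. Peak names carry MACS, per the file headers. Per the submitters' processing notes, the build was mm9 and Bowtie, TopHat and Cufflinks were among the tools, with no version given. Depth is unknown. Coordinates are mm9, counted from 1.

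Peaks were merged and overlapped at 1 bp in Python 3.11.15 with NumPy 2.4.6 and SciPy 1.17.1, and figures were drawn with Matplotlib 3.10.9. The merged lists equalled those of bedtools 2.31.1 in 20 of 20 lists, with 583 members by both, and the code was tested on simulated data. The members, lists and comparisons were chosen with earlier results of these data known. Named regions were the 10 with the highest lower EPOP score, those with an EPOP peak upon knock-down, the 5 with the highest Suz12 score and the 5 nearest to a Suz12 region, of which some are printed. EPOP and EloB lists of the same replicate number share an antibody or lot in the labels, so they were also compared within numbers. Alternatives were an overlap of 0.5 of the shorter interval, a gap of 1000 bp, Suz12 peaks of either list, the higher-scoring part of each list, classes of EPOP score and each replicate left out. Gene lists planned for an mm9 annotation were not used here.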

Additional observations from a re-analysis of the deposited data

Results flagged for a closer look

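The change in the share of regions with an H3K27me3 peak upon EPOP knock-down was −15.8 points at EPOP regions outside Suz12 regions and 0.604 points at those on Suz12, a difference of −16.4 points. It drew attention because the 2 changes differed in sign, the second being close to 0. The difference between these changes was not tested, since H3K27me3 had 1 list upon knock-down and 1 without.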

How the results depend on the processing

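Differences are percentage points, EPOP regions outside Suz12 regions minus those on Suz12. An overlap of 0.5 of the shorter interval (585 regions) and a gap of 1000 bp (571) gave −6.26 and −7.03 for H3K4me3 (reported −6.39), −47.3 and −44.9 for H3K27me3 (−45.1), −14.8 and −15.2 for EloB regions of both replicates (−14.8), −5.22 and −5.27 for EPOP upon knock-down (−5.22, the mean of its 2 lists), −29.5 and −29.3 for Suz12 upon either knock-down (−29.6), and −64.6 and −65.6 for Jarid2 upon EPOP knock-down against all EPOP regions on Suz12 (−64.6). With Suz12 peaks of either list 221 regions were left, and the differences were −54.4 for H3K27me3, −57.5 for Suz12 upon either knock-down and −60.9 for Jarid2 upon EPOP knock-down. In the higher-scoring part of each list they were −25.8 for H3K27me3, −13.0 for EloB, −0.663 for EPOP upon knock-down, −18.6 for Suz12 and −66.6 for Jarid2. Within classes of EPOP score they were −2.92 for H3K4me3, −25.4 for H3K27me3, −0.012 for EloB, −19.5 for Jarid2 and, with the sign turned, 0.034 for EPOP upon knock-down, so that the last and EloB did not hold between regions of like score; the cause was not tested. Added after seeing the data, the 129 regions without Suz12 in any list gave −11.3 for H3K4me3 and −61.1 for H3K27me3. The difference in H3K27me3 peaks found again (−46.4) was −37.3 within classes of H3K27me3 score, −34.3 within classes of EPOP score and −53.0 with Suz12 of either list.

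With each replicate left out, the number of regions was between 370 (without Suz12 replicate 2) and 5061 (without EPOP replicate 2), with 928 without EPOP replicate 1 and 453 without Suz12 replicate 1. The differences were between −20.4 and −3.48 for H3K4me3, −70.1 and −39.6 for H3K27me3, −22.9 and −13.0 for EloB, −9.51 and −0.935 for EPOP upon knock-down, −66.3 and −31.4 for Suz12 and −62.9 and −58.5 for Jarid2. The EPOP knock-down difference was −9.51 without its replicate 1, whose labels conflict, and −0.935 without replicate 2. For replicate 2 alone, added after seeing the data, it was 0.169 within classes of EPOP score and −1.33 among the higher scores of each list. For EPOP replicate 2 left out, the H3K27me3 share outside Suz12 regions was 14.2%. The median log2 H3K4me3 width ratio was between −0.042 and 0.11 upon EPOP knock-down, so that its sign depended on the replicate, and between 0.053 and 0.22 upon EloB knock-down. Within replicate numbers (the replicate block) the EloB count difference was 0, as with any EloB list left out, and the width ratio of the 2 EPOP peaks left upon knock-down was −0.25, against −0.86 to the mean of both lists. Depth is unknown and a peak missing at a score limit of 50 does not measure the signal left.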

Other observations

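The share of EPOP regions that lay outside Suz12 regions was not even over chromosomes. On the X chromosome it was 1 of 95 (1.05%), against 582 of 5625 on the autosomes (10.3%), a difference of −9.29 points (interval −10.5 to −4.56). In the lowest EPOP score class the X chromosome had 1 of 27 (3.70%), against between 13.6% on chromosome 18 and 47.0% on chromosome 8 among autosomes. Over all score classes the share among autosomes was between 6.63% on chromosome 18 and 14.3% on chromosome 8. This was noticed after the values were seen, among 20 chromosomes.

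The 57 regions outside Suz12 regions that lacked an H3K4me3 region of both lists were narrower, with a median of 1148 bp against 1580 bp at the 526 with one. Suz12 upon EPOP knock-down was at 36.8% of them, against 58.2% of those with H3K4me3 (with minus without H3K4me3, 21.3 points, interval 7.67 to 33.4). Upon EloB knock-down it was at 57.9%, against 46.4% (with minus without, −11.5 points, interval −24.1 to 2.10, which includes 0). Of the 57, 28 had an H3K4me3 peak upon EPOP knock-down, 39 upon EloB knock-down, 1 in replicate 1 and 29 in replicate 2. The background over all EPOP regions was 97.4% upon EPOP and 98.7% upon EloB knock-down. The counts upon knock-down cannot be set against those in replicates 1 and 2, because the 57 were picked for lacking an H3K4me3 region of both.

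Over the 15 lists that did not enter the choice of regions, those outside Suz12 regions held a peak in a median of 6 lists (0 to 9), against 9 (2 to 13) for EPOP regions on Suz12. Some of these lists are of EPOP, Suz12 and Jarid2 upon knock-down, targets that the choice used without knock-down.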
